A study of Homo sapiens with 2 samples.

Results

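Aminoacyl-tRNA synthetases are the enzymes that join each amino acid to its tRNA before translation. Their transcripts were measured by RNA sequencing in HCT116, a human colorectal carcinoma line in long use. The cells carried an siRNA against PHF5A in the knockdown library and a control siRNA in the control library. PHF5A belongs to SF3b, a splicing factor complex that recognises the branch point of introns, and the study compared the transcriptome after its knockdown with that of control cells. Each group was a single library (2 libraries in total), so no difference below has a replicate check and no p-value is given. The members were the rows of the deposited table that carry the gene names of 36 synthetases, out of 50867 gene rows. Of these, 20 encode cytosolic enzymes and 16, whose names end in 2, encode mitochondrial ones. All 36 were found, each in 1 row.

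Cytosolic synthetases serve the ribosomes of the cytoplasm, and the nuclear genes of the mitochondrial set make enzymes that are imported to charge mitochondrial tRNAs. GARS and KARS are known to supply both compartments from a single gene. In human cells, EPRS, IARS, LARS, QARS, MARS, KARS and RARS are among the enzymes that sit with the scaffold proteins AIMP1, AIMP2 and EEF1E1 in the multisynthetase complex. Many cytosolic synthetase genes are known targets of ATF4, the transcription factor whose translation increases when amino acids run short or when eIF2 alpha is phosphorylated for other reasons. ATF4 with its C/EBP partners is known to bind a composite element that begins TGATGNAA.

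That element is shown first, because it is the sequence through which ATF4 is known to act on this family. RefSeq promoter windows (GRCh38.p14, 250 bases before the start site and 50 from it) were matched for 30 members, 16 cytosolic and 14 mitochondrial, with 39 windows in all. LARS, VARS, YARS, AARS2 and VARS2 were among those with no matched entry. The letters TGATGNAA, searched on both strands, occurred in windows of 7 of the 16 cytosolic members and of 1 of the 14 mitochondrial members. Among all 35116 RefSeq promoter windows, 3.62% held it. The sites of AARS, CARS and GARS, which differ in direction of change, and of the mitochondrial YARS2 follow on the strand that reads TGATGNAA, 5′ to 3′, with the match in capitals and up to 15 bases on either side. They lay at chr16:70289671-70289708 (plus strand) for AARS, chr11:3057403-3057440 (plus) for CARS, chr7:30594830-30594867 (minus) for GARS and chr12:32756072-32756109 (minus) for YARS2.
AARS: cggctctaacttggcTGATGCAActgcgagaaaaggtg
CARS: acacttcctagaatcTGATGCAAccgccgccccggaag
GARS: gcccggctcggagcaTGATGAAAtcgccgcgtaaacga
YARS2: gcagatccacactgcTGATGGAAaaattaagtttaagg
In AARS and CARS the match read TGATGCAA, a form found in 0.866% of all windows, and in GARS it read TGATGAAA. The mitochondrial match, in YARS2, read TGATGGAA. A match is a description of the letters and not a bound site, and members without one may hold it outside the window.

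Both libraries were of similar depth. The knockdown library held 25897412 counts and the control library 26552789, so that 1 count on 1 kilobase was worth 0.0386 and 0.0377 FPKM (fragments per kilobase of gene length, scaled to library size). PHF5A itself had 91 counts in the knockdown library and 367 in the control library, a ratio of 0.254 (0.200 to 0.321) after scaling to the library total. This depth-scaled ratio, called the CPM ratio, is used for single genes, with a 95% exact conditional binomial interval that covers counting error alone. A gene counted as expressed when either library reached 1 FPKM. Over the 8957 such genes, the median CPM ratio of knockdown to control was 0.872. Protein-coding genes took 70.2% of the knockdown counts and 78.4% of the control counts. The libraries also differed in RNA of another cell type. All 20 heart muscle markers of a list were lower in the knockdown library, with 389 summed counts there (0.0015%) against 102502 in the control library (0.386%). Among them MYH6, MYH7, PLN and NPPA had 0 counts in the knockdown library. Fibroblast markers had 878 and 2889 summed counts in the knockdown and control libraries, blood markers 415 and 551, and endothelial markers 152 and 316. Single genes dominated these sums, with 361 and 518 counts for CD68 of blood and 141 and 284 for VWF of endothelium. COL1A1 of the fibroblast list had 786 and 1362. Of the blood list, HBA1 (25 and 9) and CD14 (26 and 16) went the other way. The part of all these marker transcripts in the synthetase ratios was not tested. Epithelial keratins KRT8, KRT18 and KRT19 were abundant in both libraries, and 3 more of the 11 colorectal markers were expressed. EPCAM had 501 and 412 counts in the knockdown and control libraries, CDH1 843 and 913, and CDX2, an intestinal transcription factor, 367 and 822. KRT20, CDX1 and CDH17 had 0 counts in both, which allows up to 3 counts each, VIL1 had 1 and 0, and LGALS4 had 0 and 2.

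Synthetase transcripts differed in direction from member to member, most of all within the cytosolic set. Of the 20 cytosolic members, 5 exceeded control by 1.5-fold or more in CPM (TARS, EPRS, LARS, AARS and GARS) and 2 were lower by as much (QARS and VARS). Of the 16 mitochondrial members, 1 was higher by that rule (IARS2) and 6 were lower (VARS2, AARS2, HARS2, NARS2, WARS2 and LARS2), WARS2 being the member not expressed at 1 FPKM. Among the 8957 expressed genes the rule called 13% higher and 27.8% lower. The cytosolic share called higher was above that background and the share called lower was below it, while the mitochondrial share called lower was near it. Differences were moderate. On the scale used for lists, log2 of the ratio of FPKM + 1, no member reached 2-fold in either direction, whereas 2.53% of expressed genes were higher by that much and 6.2% were lower. At 1.5-fold on this scale AARS and EPRS were higher, beside 8.45% of expressed genes, and QARS, VARS, VARS2 and AARS2 were lower, beside 18.2%.

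Over the list, the 20 cytosolic members had a median log2 ratio of 0.01, with 12 of 20 above the median of the expressed genes (-0.15). The 15 mitochondrial members of at least 1 FPKM had a median of -0.32, with 5 of 15 above that median. HARS2 and NARS2 passed this filter through the control library alone, and WARS2 did not pass. With all 16 mitochondrial members the median was -0.25. The cytosolic median was 0.33 above the mitochondrial one on the log2 scale. Of the 300 combinations of a cytosolic and a mitochondrial member, the cytosolic log2 ratio was the higher in 199, so the sets overlapped broadly. With each library rescaled to an equal FPKM sum (TPM) all medians moved down. They were -0.37 for cytosolic members, -0.62 for mitochondrial members and -0.47 for the expressed genes. The sign of a median thus depends on the scaling, and each is to be read beside that of the expressed genes. For single members, higher and lower compare with a ratio of 1 unless the median of the expressed genes is named.

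**Figure D1:**
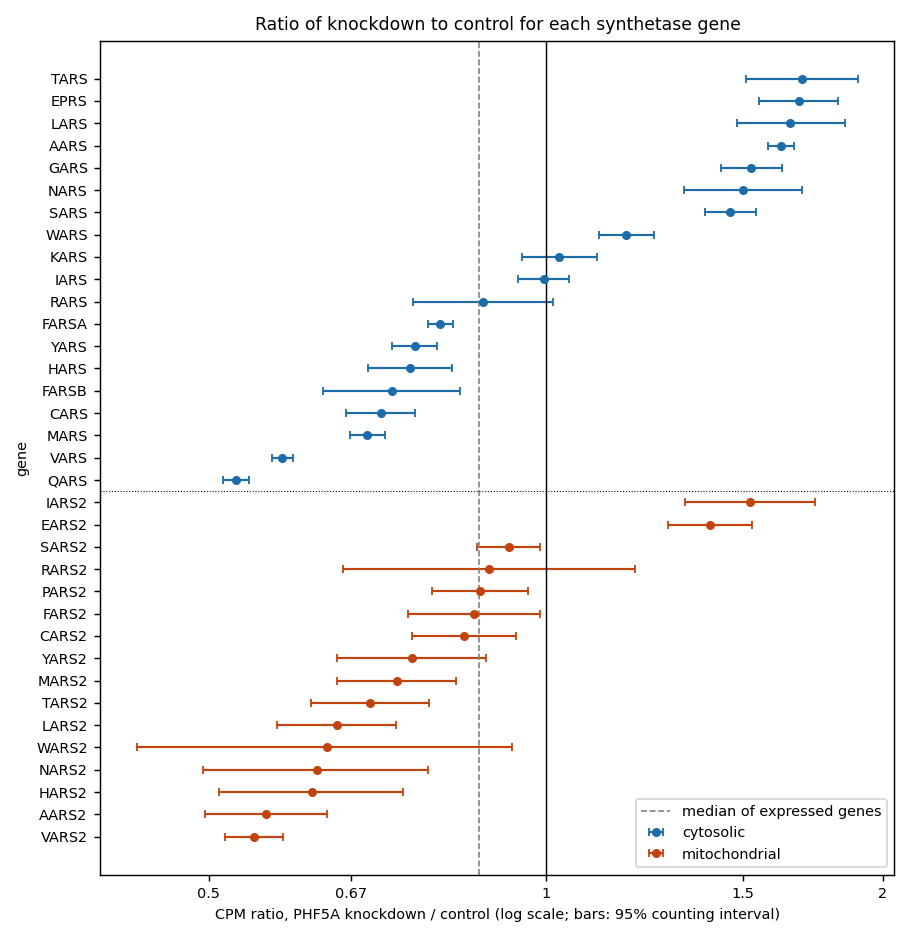
CPM ratio of the PHF5A knockdown library to the control library for each member (log axis), cytosolic members above and mitochondrial ones below, each sorted by ratio. Points are 1 library against 1, bars are 95% counting intervals, and the dashed line is the median of the expressed genes (0.872). Ratios of cytosolic members run between 0.529 (QARS) and 1.69 (TARS), and those of mitochondrial members between 0.549 (VARS2) and 1.52 (IARS2).

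Cytosolic members that were higher in the knockdown library came first from the alanine, glutamate and proline, threonine, leucine and glycine enzymes. AARS, the alanine enzyme, which also clears tRNA mischarged with serine or glycine, had 14437 counts and 95.8 FPKM in the knockdown library against 9133 counts and 59.1 FPKM in the control library. Its CPM ratio was 1.62 (1.58 to 1.66), the most precise of the higher members, and it became the synthetase with the highest FPKM in the knockdown library. The gene lies on chromosome 16, 70252295 to 70289543 (ENSG00000090861, GRCh38). Its promoter window, chr16:70289457-70289756 (minus strand, read 5′ to 3′ along the gene), carries the element in the reverse orientation, shown in capitals.
AARS promoter: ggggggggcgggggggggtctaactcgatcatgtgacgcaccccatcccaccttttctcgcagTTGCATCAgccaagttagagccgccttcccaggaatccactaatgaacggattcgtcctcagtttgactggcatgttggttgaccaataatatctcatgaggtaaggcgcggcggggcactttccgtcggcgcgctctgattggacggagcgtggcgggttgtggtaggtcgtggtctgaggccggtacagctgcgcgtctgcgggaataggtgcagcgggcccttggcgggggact
EPRS, a single chain that charges both glutamate and proline tRNAs, had 1574 counts (9.11 FPKM) in the knockdown library and 960 (5.42 FPKM) in the control library. Its ratio of 1.68 (1.55 to 1.82) was close to that of TARS, with which its interval overlapped. No TGATGNAA lay in its promoter window.

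TARS, the threonine enzyme, had 784 counts (2.83 FPKM) in the knockdown library and 475 (1.67 FPKM) in the control library, a ratio of 1.69 (1.51 to 1.90). LARS, which charges leucine tRNAs and is reported to take part in leucine sensing by mTORC1, had 840 counts (2.55 FPKM) and 521 (1.54 FPKM) in the knockdown and control libraries. Its ratio was 1.65 (1.48 to 1.85). Both genes were near the low end of the cytosolic levels, so that the higher members included abundant and scarce transcripts. GARS, the glycine enzyme of both compartments, had 2464 counts in the knockdown library and 1656 in the control library (1.53, 1.43 to 1.62). SARS, the serine enzyme, had 3408 against 2391 counts (1.46, 1.39 to 1.54), and NARS, the asparagine enzyme, 674 against 461 counts (1.499, 1.33 to 1.69), just under the 1.5-fold rule. A smaller excess was found for WARS, the tryptophan enzyme known as interferon-inducible, with 2580 against 2242 counts (1.18, 1.11 to 1.25). WARS came out below 0 on the log2 scale after TPM rescaling, although above that scale's median.

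Cytosolic members that were lower included some of the most abundant synthetase transcripts. QARS, the glutamine enzyme (chromosome 3, 49095932 to 49105135), had 8125 counts and 22.5 FPKM in the knockdown library against 15736 counts and 42.5 FPKM in the control library, a ratio of 0.529 (0.515 to 0.544). VARS, the valine enzyme, which is known to associate with elongation factor 1 (chromosome 6, 31777518 to 31795953), had 13466 counts and 50.9 FPKM against 23734 counts and 87.4 FPKM, a ratio of 0.582 (0.570 to 0.594). These were the lowest cytosolic ratios, and VARS, first in the control library by FPKM, ranked behind AARS and FARSA in the knockdown library. MARS, the methionine enzyme, had 5249 counts in the knockdown library and 7765 in the control library (0.693, 0.669 to 0.718). CARS, the cysteine enzyme, had 1296 and 1866 counts (0.712, 0.663 to 0.765), and YARS, the tyrosine enzyme, 3251 and 4365 (0.764, 0.730 to 0.799). HARS, the histidine enzyme, had 923 and 1250 counts (0.757, 0.695 to 0.825).
CARS was lower although TGATGCAA lay across a start site of the gene (first base at -2).
Of the 7 cytosolic members with the element in a window, 4 had a CPM ratio above 1, as did 4 of the 9 matched members without it. The median CPM ratio of the expressed genes was below 1, at 0.872. Their share with a ratio above 1 was not computed, so these counts have no background beside them.

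Cytosolic phenylalanine tRNA synthetase is built from the products of FARSA and FARSB, and both transcripts were lower. FARSA had 10331 counts and 68.5 FPKM in the knockdown library against 13160 counts and 85.1 FPKM in the control library (0.805, 0.784 to 0.826). FARSB had 341 counts and 3.91 FPKM against 480 counts and 5.37 FPKM (0.728, 0.632 to 0.839). Their intervals overlapped, so the subunit transcripts could not be told apart by their ratios. By FPKM the FARSA level was 17.5 times that of FARSB in the knockdown library and 15.9 times in the control library.

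Intermediate members were IARS, KARS and RARS, whose counting intervals included 1. IARS, the isoleucine enzyme, had 2743 counts in the knockdown library and 2825 in the control library (0.996, 0.944 to 1.05). KARS, the lysine enzyme, had 1317 and 1313 counts (1.03, 0.952 to 1.11), and RARS, the arginine enzyme, 359 and 419 (0.878, 0.761 to 1.01). All 3 belong to the multisynthetase complex. Over the 20 cytosolic members, intervals lay above 1 for 9 and below 1 for 8, where 28.4% and 50.7% of the expressed genes did so. Against the median ratio of the expressed genes (0.872), intervals were above it for 11, IARS and KARS among them, and below it for 8. For expressed genes these shares were 39% and 38.3%, so the number below was near the background. Summed over the 20 genes, the knockdown library held 74522 counts and the control library 91058, a ratio of 0.839 (0.831 to 0.847), on the other side of 1 from the median CPM ratio of 1.01. The sum is weighted by the abundant transcripts, VARS, QARS and FARSA among them.

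**Figure D2:**
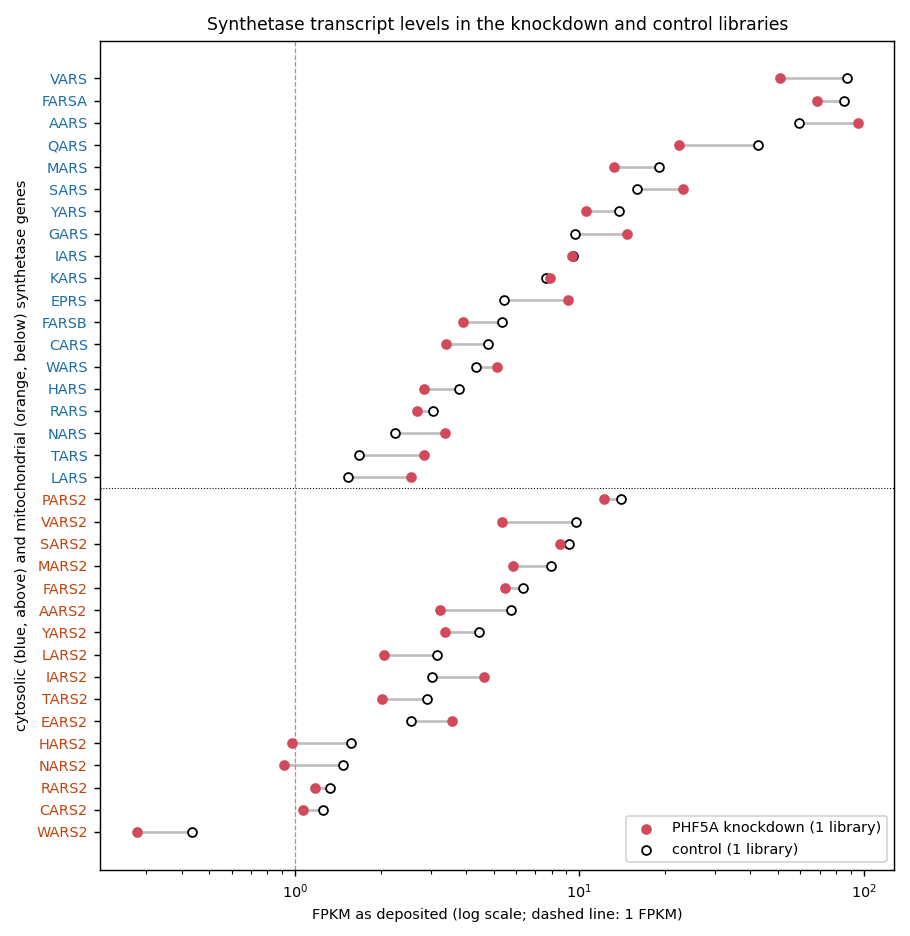
FPKM as deposited (log axis) of each member in the PHF5A knockdown library (filled) and the control library (open), sorted by the control level within each compartment. The cytosolic members drawn span levels of 2.55 to 95.8 FPKM in the knockdown library and 1.54 to 87.4 in the control library, and WARS2 is the only member below 1 FPKM in both.

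Levels differed far more between members than between libraries. By FPKM, AARS, FARSA, VARS, SARS and QARS were the highest in the knockdown library, and VARS, FARSA, AARS, QARS and MARS in the control library. The median FPKM of the cytosolic members was 8.49 in the knockdown library and 6.53 in the control library, and that of the mitochondrial members 3.31 and 3.09. FPKM depends on the length used. The lengths implied by counts and FPKM had a median of 8.97 kilobases for cytosolic members, against 2.87 kilobases for their longest coding transcripts in GENCODE 29. For CARS the implied length was 14.8 kilobases and the coding transcript 2.76 kilobases, while for FARSB both were 3.37. With counts per kilobase of the coding transcript, the same 5 members led in the control library, and the level of FARSA was 49.6 times that of FARSB in the knockdown library and 44.9 times in the control library. Their order differed from that by FPKM. FARSA had rank 1 and VARS rank 3 in both libraries, and AARS had rank 2 in the knockdown library and 5 in the control library.

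Most mitochondrial synthetases were lower in the knockdown library. Counting intervals lay below 1 for 13 of the 16 and above 1 for 2. For the 15 that were expressed these numbers were 12 and 2, beside 50.7% and 28.4% of expressed genes. Set against the median ratio of the expressed genes in place of 1, intervals were below it for 7 mitochondrial members and above it for 2, and the same held for 38.3% and 39% of expressed genes. The number below was thus near the background, and the number above was under it. VARS2, the valine enzyme of mitochondria (chromosome 6, 30908242 to 30926459), had 1689 counts and 5.35 FPKM in the knockdown library against 3154 counts and 9.74 FPKM in the control library, a ratio of 0.549 (0.517 to 0.583). AARS2, the alanine enzyme, had 386 counts and 3.25 FPKM against 703 counts and 5.77 FPKM (0.563, 0.496 to 0.638). These are the lowest ratios of the set. HARS2 for histidine had 179 counts in the knockdown library and 297 in the control library (0.618, 0.510 to 0.746), NARS2 for asparagine 123 and 202 (0.624, 0.495 to 0.785), and LARS2 for leucine 431 and 679 (0.651, 0.575 to 0.735). WARS2, which charges tryptophan tRNAs, had 46 and 74 counts (0.637, 0.431 to 0.933), the fewest of the family.

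The next mitochondrial members were nearer to the bulk of genes. TARS2 for threonine had 452 counts in the knockdown library and 665 in the control library (0.697, 0.617 to 0.787), MARS2 for methionine, an intronless gene, 456 and 635 (0.736, 0.651 to 0.832), and YARS2 for tyrosine 299 and 404 (0.759, 0.651 to 0.883). CARS2 for cysteine (635 and 770 counts), FARS2 for phenylalanine (400 and 475), PARS2 for proline (744 and 873), RARS2 for arginine (86 and 99) and SARS2 for serine (1741 and 1927) had ratios between 0.846 and 0.926. Intervals of these 5 included the median ratio of the expressed genes, so they were not distinguishable from it at this depth. RARS2, SARS2 and CARS2 came out slightly above 0 on the log2 scale (0.055, 0.049 and 0.018) after centring on the median log2 ratio of the expressed genes.

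Mitochondrial exceptions were IARS2 and EARS2. IARS2, the isoleucine enzyme (chromosome 1, 220094102 to 220148041), had 556 counts and 4.62 FPKM in the knockdown library against 375 counts and 3.04 FPKM in the control library, a ratio of 1.52 (1.33 to 1.74). EARS2 (chromosome 16, 23522014 to 23557731) had 1255 counts and 3.57 FPKM against 918 counts and 2.55 FPKM, a ratio of 1.40 (1.29 to 1.53). EARS2 puts glutamate on mitochondrial tRNAs for glutamate and for glutamine, and the GatCAB amidotransferase then converts the glutamine tRNA's glutamate. The GatCAB subunit genes did not share its direction. GATB had 366 and 692 counts in the knockdown and control libraries (0.542, 0.476 to 0.616), GATC 534 and 685 (0.799, 0.712 to 0.896) and QRSL1 60 and 78 (0.789, 0.554 to 1.12). MTFMT, which formylates the initiator methionine tRNA of mitochondria, had 112 and 108 counts (1.06, 0.809 to 1.40).

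Enzymes for the same amino acid were set side by side across compartments, in 17 pairs (EPRS and FARS2 enter in 2 pairs each). In 8 pairs the cytosolic interval lay wholly above the mitochondrial one. The share of separate intervals among pairs of other expressed genes was not computed. These intervals cover counting error alone, and those of 28.4% of expressed genes lay above 1 and of 50.7% below it. For alanine the CPM ratio was 1.62 for AARS and 0.563 for AARS2, for leucine 1.65 for LARS and 0.651 for LARS2, for threonine 1.69 for TARS and 0.697 for TARS2, and for asparagine 1.499 for NARS and 0.624 for NARS2. The serine, tryptophan, proline and glutamate pairs were the other 4. Isoleucine alone had the reverse order with separate intervals, with 0.996 for IARS and 1.52 for IARS2. In the remaining 8 pairs the intervals overlapped, and in each of these both ratios were below 1. The valine pair had 0.582 for VARS and 0.549 for VARS2, and the tyrosine pair 0.764 for YARS and 0.759 for YARS2.

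**Figure D3:**
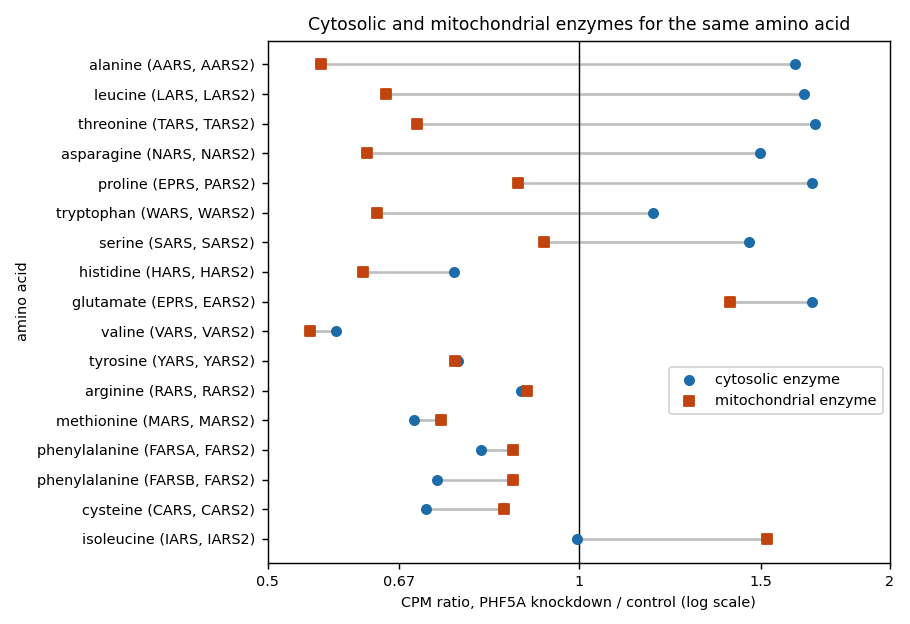
CPM ratio of the PHF5A knockdown library to the control library (log axis) for the cytosolic (circles) and mitochondrial (squares) enzyme of each amino acid, sorted by their quotient. The pairs at the top are far apart, with alanine at 1.62 and 0.563, while valine, tyrosine and arginine nearly coincide.

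HARS and HARS2 are neighbours on chromosome 5, transcribed away from each other, and both were lower in the knockdown library. Their RefSeq start sites, at 140691370 on the minus strand and 140691455 on the plus strand, are 85 bases apart. The stretch shared by the 2 promoter windows, chr5:140691321-140691504, is shown on the plus strand with the bases between the start sites in capitals.
HARS and HARS2: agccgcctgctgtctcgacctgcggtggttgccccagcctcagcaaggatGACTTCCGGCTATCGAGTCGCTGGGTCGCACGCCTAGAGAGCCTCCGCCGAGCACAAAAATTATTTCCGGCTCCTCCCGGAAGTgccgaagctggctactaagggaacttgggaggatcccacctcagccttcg
Their entries in the table overlap by 599 bases. The strand setting of the read counting was not stated, so reads from that overlap may be assigned to either gene or to none. In all, 12 members overlap an entry of at least 100 counts, in 14 pairs, 12 of them on opposite strands. The pair of HARS and HARS2 is counted from each side in both numbers. Among these 14 pairs, the longest same-strand overlap was that of VARS2 with GTF2H4 (5865 bases), a gene of the general transcription factor TFIIH that had 886 counts in the knockdown library and 2204 in the control library (0.412, 0.381 to 0.446). MARS overlaps DDIT3 on the other strand by 982 bases. DDIT3, which encodes the stress factor CHOP, had 281 against 50 counts (5.76, 4.25 to 7.95), opposite to MARS. The part of overlapping reads in these ratios was not tested. The 14 pseudogene entries named for a member had 0 counts in both libraries.

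By ATF4 link, 12 cytosolic members are reported in the literature as ATF4 targets, and 8 are outside that list. The 12 had a median log2 ratio of 0.45, and 8 of them had counting intervals above 1 (AARS, EPRS, GARS, LARS, NARS, SARS, TARS and WARS) against 3 below (CARS, MARS and YARS). The 8 others had a median of -0.31, with intervals below 1 for 5 (FARSA, FARSB, HARS, QARS and VARS) and above 1 for 1. The sets overlapped, with a log2 ratio of -0.50 for MARS on the list and 0.04 for KARS off it. Whether ATF4 had a part in these ratios was not tested. Outside the synthetases, 19 of 26 genes of the ATF4 programme had intervals above 1 and 6 below, beside 28.4% and 50.7% of expressed genes, and their median log2 ratio was 0.46. For the 21 that were expressed it was 0.60, where DDIT3 and ATF3 passed the filter through the knockdown library alone, and PSPH and CTH through the control library alone. TRIB3, a pseudokinase that restrains ATF4, had 70.4 FPKM in the knockdown library and 18.7 in the control library, and PCK2, the mitochondrial PEP carboxykinase, had 8.12 and 1.82 FPKM. PSAT1 of serine synthesis had 18.3 and 5.62 FPKM, and CHAC1, which degrades glutathione, 6.82 and 2.01 FPKM. These 4 genes, picked as the largest absolute log2 ratios of the list, had CPM ratios between 3.26 and 4.46. The median CPM ratio was 1.54 for the 21 expressed genes of the list and 1.48 for the 12 synthetases reported as ATF4 targets. ATF4 itself had 6875 counts against 4207 (1.68, 1.61 to 1.74).

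**Figure D4:**
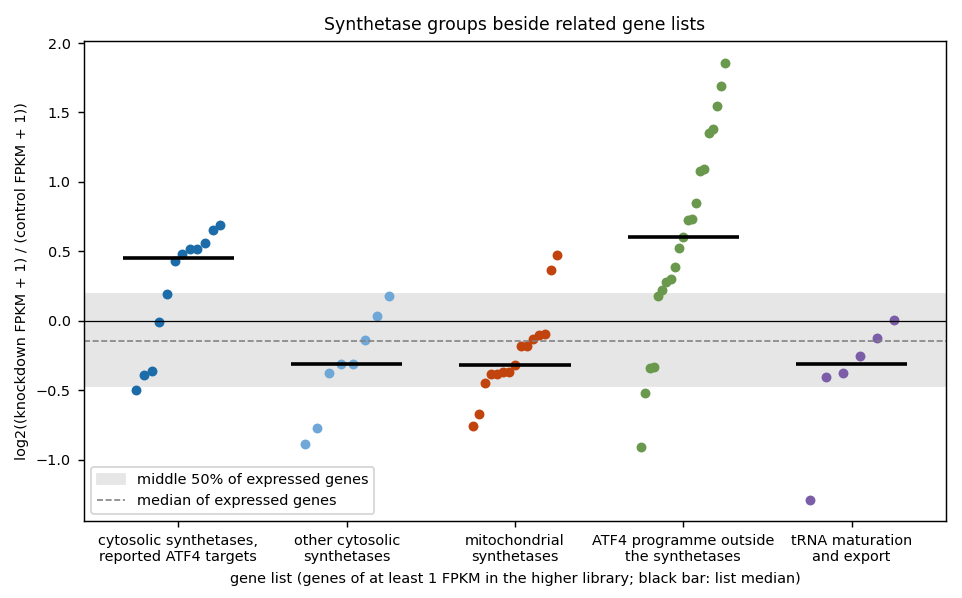
Log2 ratio of knockdown to control FPKM, each with 1 added, for expressed genes. Black bars are list medians (0.45 and -0.31 for cytosolic synthetases on and off the ATF4 list, -0.32 for mitochondrial ones, 0.60 for the rest of the ATF4 programme, -0.31 for tRNA maturation and export), the grey band holds the middle 50% of expressed genes, and the dashed line is their median.

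By complex membership the medians of the cytosolic members lay closer together than by ATF4 list. The 8 enzymes of the multisynthetase complex had a median log2 ratio of 0.01, between -0.89 for QARS and 0.66 for EPRS, and the 12 outside it a median of -0.06. Of the scaffold genes, AIMP2 had 2297 counts in the knockdown library and 1644 in the control library (1.43, 1.34 to 1.53), and EEF1E1 had 71 and 133 (0.547, 0.404 to 0.735). AIMP1 had 45 counts in each, with an interval of 0.663 to 1.59. By enzyme class, the 2 unrelated folds of the family, 7 of 10 cytosolic class II enzymes had a CPM ratio above 1 (median 1.33), against 2 of 9 class I enzymes (median 0.764), EPRS combining both. The mitochondrial members, divided by class after the values were seen, did not show this order, with 0 of 7 class II enzymes above 1 (median 0.697) and 2 of 9 class I enzymes (median 0.759). Over all expressed genes the median CPM ratio was 0.872, and the share with a ratio above 1 was not computed. Counting intervals lay above 1 for 6 cytosolic class II and 2 class I enzymes, beside 28.4% of expressed genes. They lay below 1 for 3 and 5, beside 50.7%. On the log2 scale, 7 of 10 cytosolic class II and 4 of 9 class I enzymes lay above the expressed-gene median.

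Exon number differed little between members that were higher and lower. The 6 members at least 1.5-fold higher by CPM had a median of 22 exons in the longest coding transcript and the 8 at least 1.5-fold lower a median of 21.5. Across the 36 members, exon number and CPM ratio had a Spearman correlation of 0.0048, as a description over genes measured in the same 2 libraries. GC content of the coding transcript had a median of 44.2% in the 6 higher members and 53.0% in the 8 lower ones, with ranges that overlapped (41.5 to 53.5% and 42.5 to 62.6%). Its Spearman correlation with the CPM ratio was -0.54 over the 20 cytosolic members and -0.07 over the 16 mitochondrial ones. The control count, itself the denominator of that ratio, had correlations of -0.48 and 0.09 over the same sets.

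Genes that handle tRNA before charging had ratios on both sides of the expressed-gene median. Of 9 genes of tRNA maturation and export, 6 had counting intervals below 1 and 1 (TRNT1, which adds the CCA end) above 1, where 50.7% and 28.4% of expressed genes did so. Against the median ratio of the expressed genes, intervals were below it for 4 and above it for 3. TSEN54, a subunit of the tRNA splicing endonuclease, had 1281 counts and 6.83 FPKM in the knockdown library against 3481 counts and 18.1 FPKM in the control library (0.377, 0.354 to 0.402), at least 2-fold lower. XPOT, the tRNA export receptor and a reported ATF4 target, had 470 and 478 counts (1.01, 0.886 to 1.15). Of the editing factors, AARSD1 had 870 and 977 counts (0.913, 0.832 to 1.001) and DTD1 312 and 376 (0.851, 0.730 to 0.991). In the mitochondrial translation machinery, TUFM, the mitochondrial elongation factor Tu, had 184 FPKM in the knockdown library and 278 in the control library (0.663, 0.650 to 0.676), and its exchange factor TSFM had 2.35 and 3.96 FPKM (0.593, 0.520 to 0.676). The 9 translation factor genes, 3 of them expressed, went both ways, with intervals below 1 for 3 and above 1 for 4, among them the scarce release factor genes MTRF1 and MTRF1L.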

How the data were processed

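HCT116 cells received a PHF5A siRNA or a control siRNA, and total RNA was extracted with Trizol and sequenced from TruSeq Stranded Total RNA libraries, per the labels' protocols. Per the submitters' processing notes, the tools were HISAT2 2.0.4 and Cuffdiff, and the build was hg38 (GRCh38). Annotation release and strand setting: not given in the sources used here. Each gene row of the deposited table has, per the file headers, a raw count and an FPKM per library. It had 50869 lines, and the entry of 1 gene, broken over 2 lines, was left out. With 1 siRNA library, siRNA off-target effects and PHF5A loss cannot be told apart, and in bulk RNA fewer cells of a type and less RNA per cell cannot be told apart.

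From these values, log2 ratios were computed from FPKM with a pseudocount of 1, which understates changes of low genes, and CPM ratios from counts with Clopper-Pearson intervals (95%). A gene counted as expressed at 1 FPKM in the higher library. Intervals cover counting error alone, because reads are not independent molecules. Lists are described by counts and medians beside all expressed genes. Gene type, strand and coding transcripts came from GENCODE 29, matched by identifier for 50110 gene rows, and promoters from RefSeq, matched by symbol. The members were named, except 1 that is counted in the totals and not reported singly here, with fixed lists of related genes, of which the ATF4 programme is shown by its 4 largest absolute log2 ratios, plus ATF4 and, as a neighbour of MARS, DDIT3, and ATF3, PSPH and CTH for the filter, all chosen after their values were seen. No mitochondrial tRNA rows were used. Members and lists were chosen with earlier results of these data known. Gene structure, GC content, the 1.5-fold rule on CPM and the mitochondrial class split were added later. Alternatives were a pseudocount of 0.1, no filter, 5 FPKM, median centring, TPM, protein-coding totals, CPM with a prior of 0.5 and a threshold of 1.5-fold. The interval procedure was tested on simulated data. Python 3.11.15, scipy 1.17.1, matplotlib 3.10.9, pandas 2.3.3 and numpy 2.4.6 were used.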

Additional observations from a re-analysis of the deposited data

How the results depend on the processing

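No paired analysis was possible because each group had 1 library. The cytosolic median log2 ratio, 0.01 as deposited, was -0.0058 among members of at least 5 FPKM and -0.37 with TPM rescaling, and moved to 0.16 with median centring and with protein-coding totals. The mitochondrial median, -0.32 as deposited, was -0.62 with TPM rescaling. The gap between them was 0.33 and stayed between 0.26 and 0.41 under the 7 alternatives run. With TPM rescaling the cytosolic median lay 0.11 above that of the expressed genes and the mitochondrial one 0.15 below it. Members at least 2-fold off numbered 0, and 4 with TPM rescaling, 2 cytosolic and 2 mitochondrial, all lower. A 1.5-fold threshold on the FPKM + 1 scale called 6, of which 2 were higher (both cytosolic) and 4 lower (2 cytosolic, 2 mitochondrial), beside 8.45% of expressed genes higher and 18.2% lower. Among the members named, signs changed for WARS (-0.15) and KARS (-0.34) with TPM rescaling, for IARS with median centring and with protein-coding totals (0.14 in both), for RARS (0.0095), RARS2 (0.055), CARS2 (0.018) and SARS2 (0.049) with median centring, and for SARS2 (0.044) with protein-coding totals. The 6 members at least 1.5-fold higher by CPM kept their sign with TPM rescaling, but their log2 ratios were smaller than as deposited. These were 0.29 for EPRS, 0.27 for AARS, 0.24 for TARS, 0.21 for LARS, 0.18 for GARS and 0.15 for IARS2. The median of the expressed genes on that scale was -0.47. Depth limits WARS2, RARS2 and AIMP1, each under 100 counts per library. Comparing levels by the length of the coding transcript was chosen after the values were seen.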
